A study of Mus musculus with 2 samples.

Results

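The immune checkpoint ligands and receptors followed here are 10 genes, Cd274, Cmtm6, Pdcd1, Ctla4, Lag3, Havcr2, Tigit, Cd47, Sirpa and Lgals9, among the 19059 genes counted in this single-cell RNA sequencing (scRNA-seq) series. They were chosen by symbol, and all 10 were found in every count matrix. Both groups carried the same orthotopic tumor, grown from 1 mouse glioblastoma stem cell line (mGSC, Trp53+/- and Nf1+/-) in the brains of C57BL/6J mice that kept their own immune cells. The mice received either vehicle or Xevinapant, each given daily by oral gavage until the tumors were taken. Xevinapant is a SMAC mimetic that antagonizes the inhibitor of apoptosis proteins BIRC2, BIRC3 and XIAP. The labels give no age for the animals. Each group was run as its own pool on its own batch date, and the labels name total RNA for the vehicle pool and polyA RNA for the Xevinapant pool, so that pool, date and treatment cannot be told apart.

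Checkpoint molecules set how strongly an immune cell responds to the cell it touches. Cd274 encodes PD-L1, the ligand of the T cell receptor PD-1 (Pdcd1), and CMTM6 keeps PD-L1 at the cell surface. CTLA-4 competes with CD28 for CD80 and CD86, TIGIT binds PVR and nectins, LAG-3 binds MHC class II, and TIM-3 (Havcr2) binds galectin-9 (Lgals9) among other ligands. CD47 is a broadly expressed surface protein that engages SIRPα on myeloid cells and restrains phagocytosis. In glioblastoma most infiltrating immune cells are microglia and macrophages, and T cells are few.

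The 8 matrices held 4505 to 14728 barcodes each, with 71835789 to 300206053 unique molecular identifiers (UMIs) per matrix. Of the 56943 barcodes, 1413 occurred with the same probe barcode in both pools, and for 1152 of these the copy with at least 20 times fewer UMIs was set aside. After quality and doublet filters, 49952 cells were kept. Marker UMIs placed 35499 of them in a tumor gate, 3034 in a myeloid gate, 227 in a lymphoid gate, 246 in an endothelial gate and 542 in a fibroblast and mural gate, and 10404 cells fell in no gate. No checkpoint gene was used as a marker. The tumor panel holds glial and neural lineage markers, so host glia within the tumor gate were not set apart. The methods describe a copy-number step for telling tumor from normal cells, which was not run here. The tumor marker panel took 72.6 of every 10000 UMIs in tumor cells, 5.35 in myeloid cells and 6.27 in lymphoid cells. The myeloid panel took 329, 1.06 and 12.5 of every 10000 UMIs in myeloid, tumor and lymphoid cells. The lymphoid panel took 105 in lymphoid, 0.0443 in tumor and 0.253 in myeloid cells. Finer panels separated 755 microglia, 1168 macrophages and monocytes, 301 neutrophils and 8 dendritic cells within the myeloid gate. Another 802 myeloid cells met no finer panel. Within the lymphoid gate the panels separated 128 T cells, 35 NK cells and 40 B cells, and 24 cells met none. Vehicle matrices 1 and 3, Xevinapant matrices 1 and 2 and Xevinapant matrices 3 and 4 were alike in cell makeup, and the difference in tumor expression over that of sampling alone was 1.17, 2.32 and 2.72, above noise but below the 4.53 to 8.71 of the remaining pairs within a group. In myeloid expression the joined pairs reached 1.31 times the noise and the others began at 1.38. Each alike pair was counted as 1 mouse sample, a count inferred from the data, while the methods describe 4 tumors per group. What changes when each matrix is 1 mouse is given beside the treatment results. This left 3 vehicle and 2 Xevinapant samples, and values per sample are given in the order vehicle 1 and 3, vehicle 2, vehicle 4, Xevinapant 1 and 2, Xevinapant 3 and 4.

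Levels are given in CPM, counts scaled to a common library total, from the UMIs of a gene over all UMIs of a cell class in a sample. The kit reads RNA through gene probes, so the levels of different genes are not comparable with each other, and each gene is compared only with itself across classes and samples. Detection is the share of cells with at least 1 UMI of the gene, with Wilson 95% intervals that cover counting error only. The median cell held 15354 UMIs in the tumor gate, 8460 in microglia, 5911.5 in macrophages and monocytes, 1446 in neutrophils, 1943.5 in T cells, 3311 in NK cells and 4314 in endothelial cells, so shares were also read with each cell thinned to 1000 UMIs. Cells with fewer than 1000 UMIs were left out of the thinned shares, which therefore cover fewer cells in classes of low depth. The median neutrophil held 1110 UMIs in vehicle 1 and 3 and 1080.5 in vehicle 4. It held 1467.5 and 1736 in the Xevinapant samples, so the part left out can differ between the groups.

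On average over the samples, tumor cells held most of the UMIs of Cd47, Cmtm6, Lag3, Sirpa and Lgals9. They held less than 50% of those of Cd274, Havcr2, Pdcd1, Ctla4 and Tigit. In the Xevinapant group the tumor share was as low as 39.9% for Sirpa and 48% for Lgals9. Tumor cells made up 71 ± 9.29% of the kept cells and 87.1 ± 5.32% of all UMIs (mean ± SD, n = 5 samples). They held 82.8 ± 8.34% of the Cd47 UMIs and 80.2 ± 7.99% of the Cmtm6 UMIs, close to their share of all UMIs. They held 39.1 ± 12% of the Cd274 UMIs and 22.1 ± 9.23% of the Havcr2 UMIs. For Cd274 the groups were unlike: 41.1% to 53.6% in tumor cells of the 3 vehicle samples and 21.7% and 34.04% in the Xevinapant samples. Tumor cells held more Cd274 than myeloid cells did in vehicle 2 and vehicle 4. The mean tumor share of all UMIs also differed, at 90.7% in vehicle and 81.6% in Xevinapant. Tumor shares of Cmtm6, Pdcd1, Lag3, Havcr2, Cd47 and Sirpa were likewise lower in Xevinapant without overlap. The tumor share of all UMIs did not overlap either, at 89.3% to 92.7% in vehicle and 79.7% and 83.6% in Xevinapant. How many of all genes did the same was not counted, so this is not read as a result about the checkpoint genes. The part of cell makeup in these shares was not tested. Cells in no gate made up 14.7% to 19.1% of kept cells in the vehicle samples and 24.9% and 26.1% in the Xevinapant samples. They held 14.5 ± 2.02% of the Cd274 UMIs and 12.9 ± 3.41% of the Havcr2 UMIs. Myeloid cells, with 6.16 ± 3.86% of the cells and 2.6 ± 2.13% of all UMIs, held 44.1 ± 9.44% of Cd274, 63.6 ± 7.68% of Havcr2 and 22.2 ± 15.1% of Sirpa. Lymphoid cells, with 0.0666% of all UMIs, held 40.3 ± 20.1% of Pdcd1 and 57.7 ± 21.8% of Ctla4, the latter over 4 samples, since vehicle 2 had no Ctla4 UMI. The Pdcd1 share was 17.6% to 33.3% in the vehicle samples and 55.6% and 66.3% in the Xevinapant samples. The mean lymphoid share of all UMIs was 0.0403% in vehicle and 0.106% in Xevinapant. For Lag3 the lymphoid share was 0.692 ± 0.491%, and 72.1 ± 5.89% of its UMIs lay in tumor cells.

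**Figure D1:**
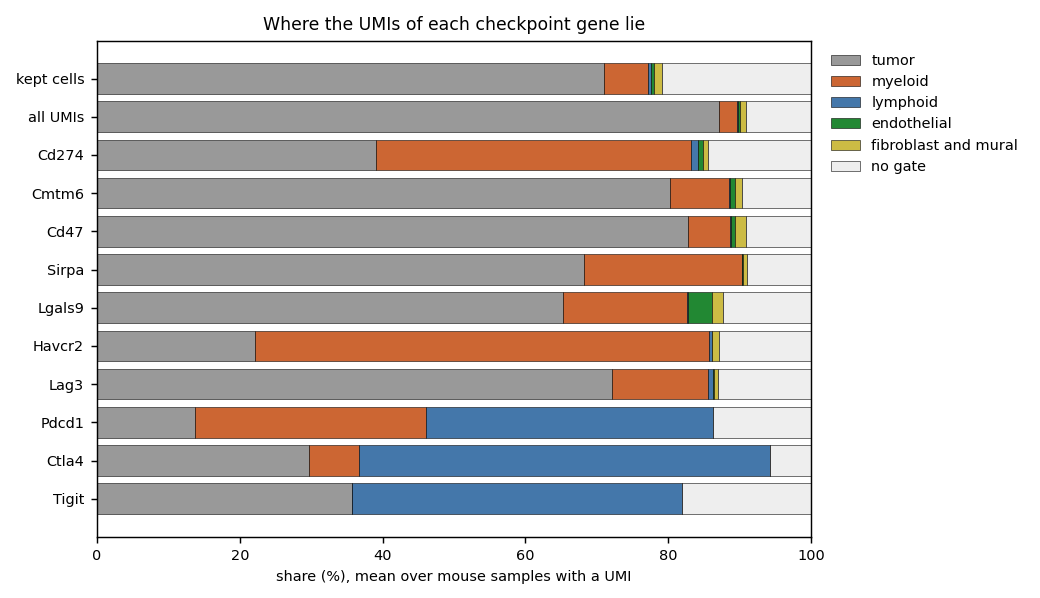
Stacked bars give the share (%) of kept cells, of all UMIs and of the UMIs of each checkpoint gene that lay in each gate, as the mean over 5 mouse samples, or 4 for Ctla4, which had no UMI in vehicle 2. Tumor cells held 82.8% of Cd47 but 39.1% of Cd274, myeloid cells held 63.6% of Havcr2, and lymphoid cells held 57.7% of Ctla4.

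Between the gates the checkpoint genes differed widely. In counts summed per sample and gate, with the sample as a block and edgeR's quasi-likelihood test, 8 of the 10 genes passed the low-count filter, all but Ctla4 and Tigit. All 8 were higher in myeloid than in tumor cells at a Benjamini-Hochberg adjusted p under 0.05, where 77.4% of the 12007 genes tested were called in one direction or the other. In lymphoid against tumor cells the same 8 were called, 7 higher and Sirpa lower, against 55.3% of all genes tested. In lymphoid against myeloid cells 6 of 8 were called, Pdcd1 higher and Sirpa, Havcr2, Lgals9, Cd274 and Cmtm6 lower, against 34.5%. The Cd274 difference (-1.15 ± 0.25, adjusted p = 0.000961) was not called in 1 of 15 alternatives, without TMM (-0.59, adjusted p = 0.0854). A large share of all genes differed between the gates, so the sizes of the differences are given gene by gene. Scaling by library size without TMM moved the median of all genes by -0.47 on the log2 scale in myeloid against tumor cells and by 0.57 in lymphoid against myeloid cells, and DESeq2 moved them by -0.11 and 0.13.

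**Figure D2:**
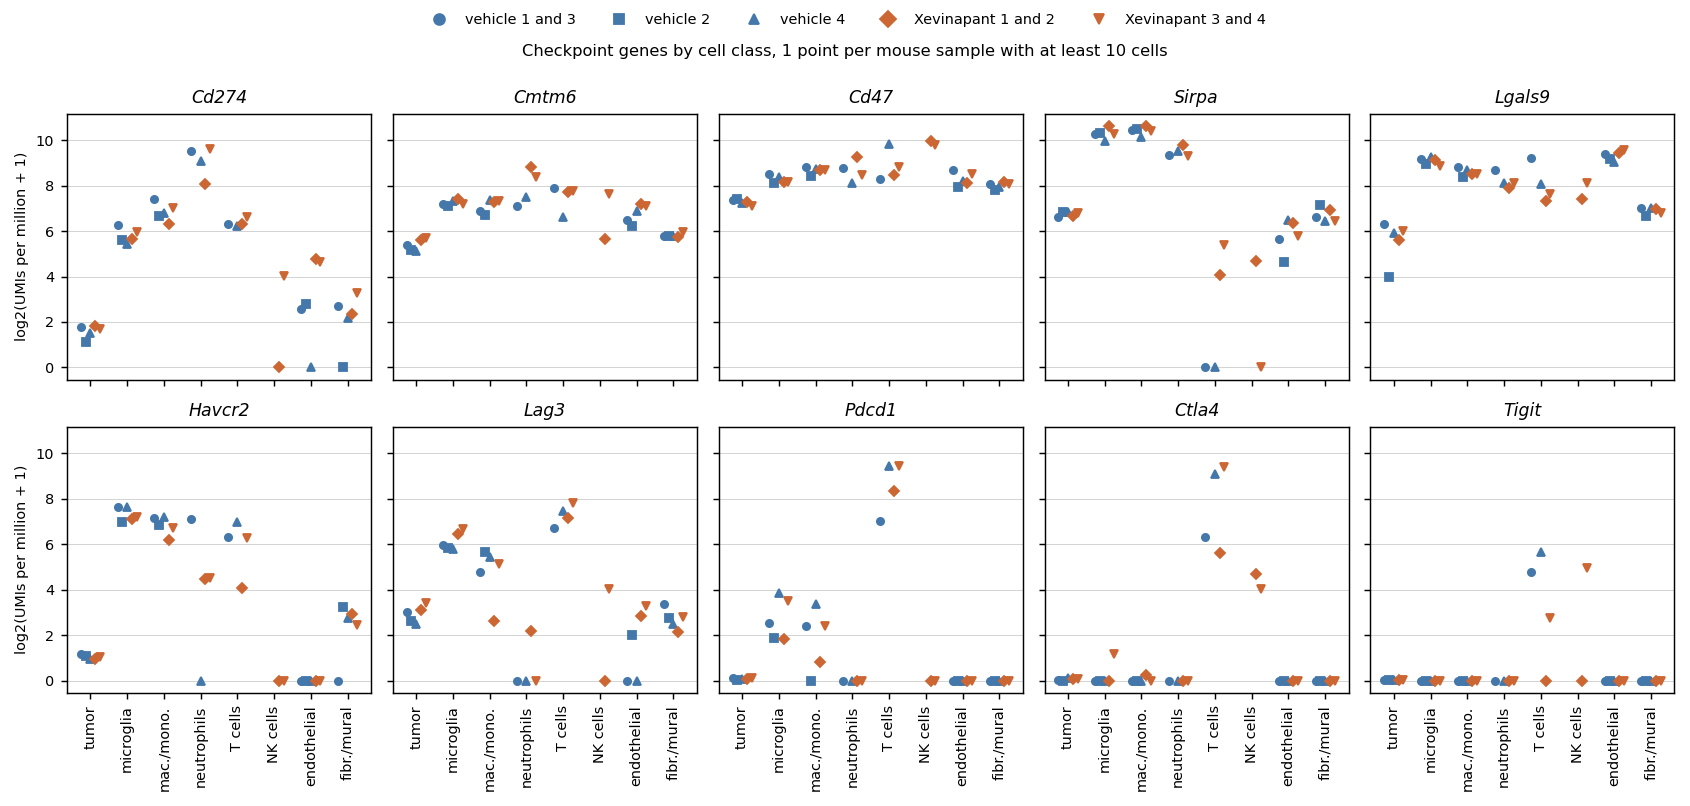
Each point is the level of 1 gene in 1 mouse sample, as log2(CPM + 1), for cell classes with at least 10 cells in that sample, with vehicle in blue and Xevinapant in orange. Cd274 rises from tumor cells to neutrophils, Sirpa is high in all 3 myeloid classes and at 0 in the T cells of the vehicle samples shown, and Pdcd1 and Ctla4 stand out in T cells.

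Cd274, which encodes PD-L1 (chromosome 19, 29362107 to 29388095, GRCm38), was low in tumor cells and, among classes with at least 10 cells in a sample, highest in neutrophils. In tumor cells it stood at 2.48, 1.15 and 1.83 CPM in the vehicle samples and 2.57 and 2.27 CPM in the Xevinapant samples. In microglia it stood at 75.6, 47.2 and 42.1 CPM in the vehicle samples and 49.4 and 61.7 CPM in the Xevinapant samples, and in macrophages and monocytes at 168, 100.3 and 110.4 CPM in the vehicle samples and 78.4 and 128 CPM in the Xevinapant samples. In every sample both classes were above the tumor cells, and macrophages and monocytes were above microglia. The 4 samples with at least 10 neutrophils gave 730.1, 547, 271 and 788 CPM there, from cells of low depth. The fitted difference was 6.01 ± 0.15 (log2 fold change ± SE) for myeloid against tumor cells, 1.12 ± 0.16 for macrophages and monocytes against microglia (edgeR adjusted p = 2.79e-07) and 3.10 ± 0.21 for neutrophils against microglia (adjusted p = 3.04e-17), where 22.0% and 47.7% of the 9172 genes tested were called. T cells also carried Cd274, at 78.2, 74.1, 79.6 and 98.3 CPM in the 4 samples with at least 10 T cells. Endothelial cells gave 4.86, 5.96 and 0 CPM in the vehicle samples and 26.6 and 23.6 CPM in the Xevinapant samples. The lymphoid gate held 40 Cd274 UMIs in all and the endothelial gate 35, so the T cell and endothelial levels rest on few counts.

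Cd274 was detected in 81 of 301 cells (26.9%, interval 22.2 to 32.2) among neutrophils and in 217 of 755 cells (28.7%, interval 25.6 to 32.1) among microglia. Tumor cells showed it in 1162 of 35499 cells (3.27%, interval 3.09 to 3.46). At 1000 UMIs per cell, among the cells with at least 1000 UMIs only, the shares were 24.8%, 6.13% and 0.215%. Pooled over samples, the tumor level was 3.8% of the microglial level. For comparison, Tyrobp and Fcer1g, signalling adaptors of myeloid cells that were in no gate, stood in tumor cells at 0.207% and 0.307% of their microglial level.

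Cmtm6 (chromosome 9, 114731157 to 114749359) was read in every class and was close in microglia and in macrophages and monocytes. Tumor cells held 41.5, 34.7 and 34.3 CPM in the vehicle samples and 47.2 and 50.2 CPM in the Xevinapant samples, microglia 143, 138 and 159 CPM in the vehicle samples and 169 and 144 CPM in the Xevinapant samples, and macrophages and monocytes 116, 103 and 166 CPM in the vehicle samples and 154 and 160.4 CPM in the Xevinapant samples. Microglia and macrophages did not differ beyond their spread (-0.05 ± 0.16, adjusted p = 0.866), and both were above tumor cells in every sample. Myeloid against tumor cells gave 2.32 ± 0.12, the smallest difference of the 8 genes after that of Cd47. Neutrophils were higher than microglia (0.95 ± 0.22, adjusted p = 0.000447), a call lost without Xevinapant 1 and 2. In samples with at least 10 neutrophils they held 135 and 182 CPM in vehicle and 446 and 337 CPM in Xevinapant. The vehicle values come from class totals of 36983 and 10971 UMIs, so each rests on few Cmtm6 UMIs. The lower level in lymphoid than in myeloid cells (-0.54 ± 0.19, adjusted p = 0.0364) was not called in 11 of 15 alternatives, among them each left-out sample but Xevinapant 3 and 4, and was 0.03 without TMM.

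Cd47, the ligand that restrains phagocytosis (chromosome 16, 49851328 to 49912503), differed least between myeloid and tumor cells among the 8 genes tested. Tumor cells held 166, 171 and 148 CPM in the vehicle samples and 153 and 138 CPM in the Xevinapant samples, microglia 365, 279 and 335 CPM in the vehicle samples and 286 and 281 CPM in the Xevinapant samples, and macrophages and monocytes 450.4, 345 and 421 CPM in the vehicle samples and 412 and 408 CPM in the Xevinapant samples. Among tumor, microglial and macrophage classes the tumor cells were lowest in every sample, and the pooled tumor level was 49.5% of the microglial level, the highest such share among these 8 genes. The difference between myeloid and tumor cells was 1.67 ± 0.15, while macrophages and monocytes against microglia gave 0.47 ± 0.18 (adjusted p = 0.0504) and lymphoid against myeloid cells 0.25 ± 0.17 (adjusted p = 0.294). The highest pooled level was that of NK cells, at 956 CPM from 130 UMIs in 35 cells, with 481 CPM in T cells. The test of T cells against NK cells gave -1.03 ± 0.33 (adjusted p = 0.111), and it was called in 3 of 14 alternatives, at -1.27 to -1.10. The macrophage difference was called in 7 of 15 alternatives, at 0.45 to 0.54, and the lymphoid one in 2 of 15, at 0.85 without TMM and 0.50 without vehicle 1 and 3. Detection was 77.6% of tumor cells and 86.5% of microglia, and 14% and 27% at 1000 UMIs.

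Sirpa, the receptor of CD47 (chromosome 2, 129591042 to 129632228), was high in all 3 myeloid classes and all but missing from lymphocytes. Microglia held 1234, 1291 and 1008 CPM in the vehicle samples and 1563 and 1246 CPM in the Xevinapant samples, and macrophages and monocytes 1391, 1427 and 1123 CPM in the vehicle samples and 1595 and 1335 CPM in the Xevinapant samples, and these 2 classes did not differ beyond their spread (0.18 ± 0.18, adjusted p = 0.534). Neutrophils were lower than microglia (-1.03 ± 0.23, adjusted p = 0.000264). T cells carried 8 Sirpa UMIs in 128 cells, none of them in the 3 vehicle samples, and B cells carried none. Lymphoid against myeloid cells gave -6.44 ± 0.30 and lymphoid against tumor cells -2.41 ± 0.39 (adjusted p = 3.74e-05). Both were called in all 15 alternatives, but their sizes ran from -7.63 and -3.60 without Xevinapant 3 and 4 to -5.05 and -1.12 with the looser gate. Tumor cells carried Sirpa too, at 96.6, 114 and 113 CPM in the vehicle samples and 102 and 110.1 CPM in the Xevinapant samples, and 65.4% of them had a UMI. That level was 8.62% of the microglial one, against the 0.207% and 0.307% of the 2 myeloid adaptors, and 9.73% of tumor cells had a Sirpa UMI at 1000 UMIs per cell. Both ligand and receptor were thus read in the myeloid gate and in tumor cells, while T cells held the ligand with few UMIs of the receptor.

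Lgals9 encodes galectin-9 and Havcr2 its receptor TIM-3, and both were higher, pooled, in microglia and in macrophages and monocytes than in T cells. They lie on chromosome 11 (Lgals9 at 78962979 to 78984924, Havcr2 at 46454931 to 46481255, GRCm38.p6). Their promoter windows from RefSeq, 250 bases before to 50 after the start site, are shown as those of a ligand and receptor pair whose windows held motif matches. Capitals mark matches, on either strand, to the interferon response element, the PU.1 box GAGGAA or the RUNX motif TGTGGT.
Havcr2 promoter, chr11:46454681-46454980, plus strand: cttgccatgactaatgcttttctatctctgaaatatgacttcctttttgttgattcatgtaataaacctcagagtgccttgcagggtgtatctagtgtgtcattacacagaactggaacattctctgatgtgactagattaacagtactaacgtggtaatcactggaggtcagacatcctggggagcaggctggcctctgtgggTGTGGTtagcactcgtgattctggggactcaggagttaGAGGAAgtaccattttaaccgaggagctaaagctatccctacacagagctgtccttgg
Lgals9 promoter, chr11:78984875-78985174, minus strand: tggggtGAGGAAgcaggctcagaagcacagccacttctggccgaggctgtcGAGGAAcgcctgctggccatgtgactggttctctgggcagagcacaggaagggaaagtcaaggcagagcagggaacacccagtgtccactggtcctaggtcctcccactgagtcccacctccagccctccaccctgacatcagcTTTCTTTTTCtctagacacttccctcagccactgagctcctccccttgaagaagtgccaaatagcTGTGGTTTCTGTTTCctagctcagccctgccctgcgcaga

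The Lgals9 window held 2 interferon response elements, 2 PU.1 boxes and 1 RUNX motif that overlapped an interferon element, and the Havcr2 window 1 PU.1 box and 1 RUNX motif. Among 32851 mouse promoter windows of the same length, 3.44% held the interferon element, 28.3% the PU.1 box and 16.8% the RUNX motif. Of the 10 genes, 8 had a window in the table, Lag3 and Sirpa had none, and the windows of Cd274, Cmtm6 and Cd47 held none of the 6 motifs searched, which were these 3 and GAS (TTCNNNGAA, 8.3% of windows), NFAT (GGAAAA, 23.4%) and NF-kB (1.63%). These matches describe letters only.

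Havcr2 and Pdcd1 had the widest differences between myeloid and tumor cells among the 8 genes, and their order lay within the error. Microglia held 195, 123 and 200.3 CPM in the vehicle samples and 136 and 145 CPM in the Xevinapant samples, and macrophages and monocytes 139, 113 and 145 CPM in the vehicle samples and 72.3 and 103 CPM in the Xevinapant samples. Tumor cells stayed at 1.25, 1.12 and 0.943 CPM in the vehicle samples and 0.929 and 1.06 CPM in the Xevinapant samples. Myeloid against tumor cells gave 7.45 ± 0.18 for Havcr2 and 7.16 ± 0.48 for Pdcd1, and the pooled tumor level of Havcr2 was 0.65% of the microglial level. Macrophages and monocytes were lower than microglia (-0.47 ± 0.14, adjusted p = 0.012), a call lost in 4 of 15 alternatives (DESeq2, and without vehicle 1 and 3, Xevinapant 1 and 2 or Xevinapant 3 and 4), and neutrophils were lower still (-2.29 ± 0.36, adjusted p = 1.08e-06). A Havcr2 UMI was found in 529 of 755 cells (70.1%, interval 66.7 to 73.2) among microglia and in none of 246 endothelial cells, which at a floor of 3 counts allows a share of up to 1.22% of cells with a UMI, not of cells expressing the gene. In T cells it was found in 15 of 128 cells (11.7%, interval 7.23 to 18.4), on 22 UMIs, and in none of 35 NK cells.

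Lgals9 was high in myeloid cells and in endothelium. Microglia held 576, 487 and 604 CPM in the vehicle samples and 550.5 and 468 CPM in the Xevinapant samples, macrophages and monocytes 453, 329 and 407 CPM in the vehicle samples and 366 and 359 CPM in the Xevinapant samples, and endothelial cells 671, 584 and 519 CPM in the vehicle samples and 687 and 759 CPM in the Xevinapant samples. Endothelial and microglial ranges overlapped, and macrophages and monocytes were below microglia in every sample (-0.43 ± 0.16, adjusted p = 0.0472), a call lost in 10 of 15 alternatives, among them leaving out each of the 5 samples in turn. Tumor cells held 77.4, 15 and 60.2 CPM in the vehicle samples and 47.9 and 64.1 CPM in the Xevinapant samples, and the low value was that of vehicle 2. In that sample 15.2% of tumor cells had a Lgals9 UMI, against 35.5% to 44.8% in the other 4, at a median of 14050 UMIs per cell against 13884 to 18164.5, and at 1000 UMIs per cell the share was 1.35% against 4.31% to 6.19%. Its microglia stood at 487 CPM, within the range of the others. Myeloid against tumor cells gave 3.73 ± 0.23 and lymphoid against myeloid cells -1.64 ± 0.29.

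Lag3, which encodes an inhibitory receptor of T and NK cells (chromosome 6, 124904359 to 124912434), was found in microglia and tumor cells as well as in T cells. Microglia held 61, 56.4 and 54.1 CPM in the vehicle samples and 87.5 and 102 CPM in the Xevinapant samples, and 286 of 755 cells (37.9%, interval 34.5 to 41.4) had a UMI, or 8.66% at 1000 UMIs per cell. Macrophages and monocytes held 26.4, 48.9 and 42.6 CPM in the vehicle samples and 5.16 and 34.3 CPM in the Xevinapant samples, lower than microglia (-1.65 ± 0.26, adjusted p = 2.93e-06), and 301 neutrophils held 1 UMI (-5.05 ± 1.07 against microglia, adjusted p = 0.000132). The order of these 3 myeloid classes was the reverse of that of Cd274. T cells held 104, 173, 143 and 225 CPM in the 4 samples with at least 10 of them, and lymphoid and myeloid cells did not differ beyond their spread (0.35 ± 0.32, adjusted p = 0.436), though Lag3 was called higher in lymphoid cells without TMM (0.90) and with the looser gate (0.97), 2 of 15 alternatives. Tumor cells held 7.02, 5.19 and 4.62 CPM in the vehicle samples and 7.66 and 9.55 CPM in the Xevinapant samples. The pooled tumor level was 9.08% of the microglial level and lay between 8.54% and 11.5% in the 5 samples, while that of Tyrobp lay between 0.160% and 0.246%. A Lag3 UMI was found in 10.2% of tumor cells, and in 0.882% at 1000 UMIs per cell. Endothelial cells, of lower depth, held 11 Lag3 UMIs among 2153019 in all, and tumor cells 4992 among 713886454. A UMI was found in 4.07% of endothelial cells and thinning left none, counts too few to set these classes apart.

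Pdcd1 and Ctla4 were highest in T cells, and Tigit was close to the limit of detection. The promoter windows of Pdcd1 (chromosome 1, 94038305 to 94052553) and Ctla4 (chromosome 1, 60909025 to 60915832) are shown as those of the 2 genes that separated T cells from NK cells. Capitals mark the PU.1 box in Pdcd1 and, on the reverse strand, the NFAT motif in Ctla4.
Pdcd1 promoter, chr1:94052504-94052803, minus strand: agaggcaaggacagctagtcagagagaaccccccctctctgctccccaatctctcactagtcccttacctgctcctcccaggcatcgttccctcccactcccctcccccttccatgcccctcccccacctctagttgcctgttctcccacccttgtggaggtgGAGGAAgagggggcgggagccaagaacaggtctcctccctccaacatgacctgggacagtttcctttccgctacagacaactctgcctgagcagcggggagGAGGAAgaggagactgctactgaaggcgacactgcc
Ctla4 promoter, chr1:60908775-60909074, plus strand: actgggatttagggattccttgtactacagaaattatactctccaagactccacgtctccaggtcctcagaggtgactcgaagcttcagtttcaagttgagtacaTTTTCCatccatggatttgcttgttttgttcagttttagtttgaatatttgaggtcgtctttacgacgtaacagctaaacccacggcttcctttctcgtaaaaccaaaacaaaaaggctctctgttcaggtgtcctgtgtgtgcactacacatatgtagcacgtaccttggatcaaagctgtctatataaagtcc

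Pdcd1, the gene of PD-1, stood at 130.4 and 691 CPM in the T cells of vehicle 1 and 3 and of vehicle 4, and at 318 and 694 CPM in those of the Xevinapant samples. Vehicle 2 had 6 T cells and was left out of this range. Pooled, T cells held 542 CPM, and NK cells, B cells, neutrophils, endothelial and fibroblast cells held no Pdcd1 UMI. Against a floor of 3 counts over the class, T cells were at least 24.6-fold higher than NK cells and at least 85.9-fold higher than neutrophils. The fit called T cells against NK cells for Pdcd1 (adjusted p = 4.86e-06) and Ctla4 (4.45 ± 0.82, adjusted p = 0.000417), 2 of 9 checkpoint genes tested, against 1.82% of the 9172 genes tested. The 2 Xevinapant samples alone had at least 10 NK cells, so this contrast rests on them, and without Xevinapant 3 and 4 neither gene was called. Of the others, Cd274 gave 3.09 ± 1.14 (adjusted p = 0.23), Lag3 4.25 ± 1.34 (0.109), Cmtm6 0.59 ± 0.49 (0.756), Sirpa 1.49 ± 1.47 (0.815) and Lgals9 0.01 ± 0.42 (1), and Havcr2, with no UMI in NK cells, was not called either (adjusted p = 0.134). Lag3 was called in some alternatives of this contrast, though not in 11 of 14. Among T cells 56 of 128 cells (43.8%, interval 35.5 to 52.4) had a Pdcd1 UMI, or 29.8% at 1000 UMIs per cell. Of tumor cells 0.0789% had one, on 38 UMIs in all.

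Microglia also held Pdcd1, at 4.85, 2.62 and 13.5 CPM in the vehicle samples and 2.5 and 10.3 CPM in the Xevinapant samples. A UMI was found in 44 of 755 cells (5.83%, interval 4.37 to 7.73) among microglia, but in 0.533% at 1000 UMIs per cell, and in none of 246 endothelial cells, which allows the same 1.22% of cells with a UMI. Lymphoid against myeloid cells gave 5.03 ± 0.42. The lymphoid marker panel took 0.253 of every 10000 UMIs in myeloid cells, and its part in the microglial Pdcd1 was not tested.

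The 128 T cells were split into 54 with CD8 markers, 37 with at least 2 UMIs of a Foxp3 panel (Foxp3, Il2ra and Ikzf4, genes of regulatory T cells) and 37 others. These cells came from 5 samples in unequal numbers, 66 of the 128 from Xevinapant 3 and 4, and their shares are given as descriptions. Ctla4 was found in 26 of 37 cells (70.3%, interval 54.2 to 82.5) of the Foxp3 panel, in 11.1% of CD8 T cells and in 13.5% of the others, with pooled levels of 1294, 50.01 and 135 CPM. Pdcd1 was found in 24 of 37 cells (64.9%, interval 48.8 to 78.2) of the Foxp3 panel, in 25 of 54 cells (46.3%, interval 33.7 to 59.4) of the CD8 group and in 18.9% of the others. Lag3 was highest among CD8 T cells, with 33.3% of cells and 300.1 CPM, against 18.9% of the Foxp3 panel. Tigit, whose ligands include PVR and nectin-2, was found in 5 of 128 T cells and 2 of 35 NK cells, and 16 Tigit UMIs were counted in all 49952 kept cells. No order of Tigit levels among classes can be read at this depth. At least 2 of the 5 receptor genes Pdcd1, Ctla4, Lag3, Havcr2 and Tigit were detected in 51 of the 128 T cells, 1 in 21 and none in 56. Pdcd1 and Ctla4 were detected together in 27 T cells, 20 of them among the 37 of the Foxp3 panel and 5 among the 54 with CD8 markers. Among 35 NK cells none had 2 of these receptors.

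**Figure D3:**
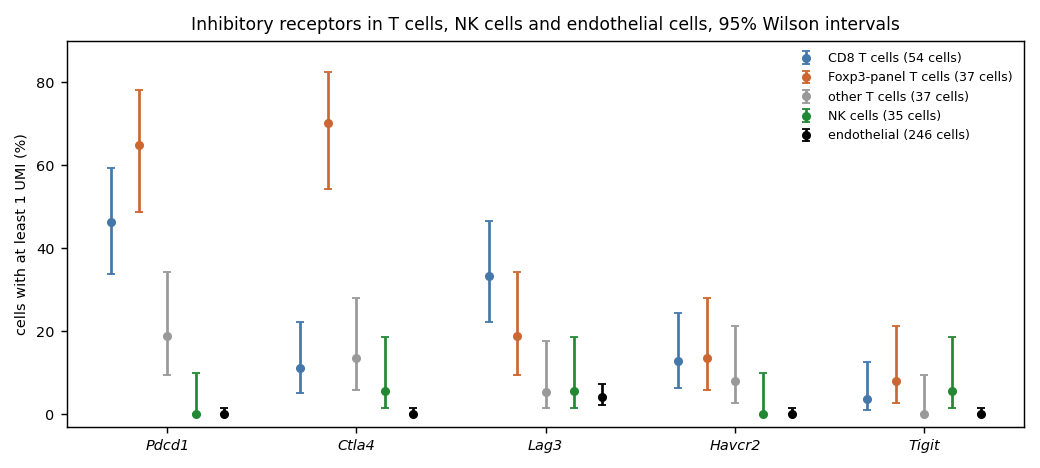
Points give the share of cells (%) with at least 1 UMI of each receptor gene in CD8, Foxp3-panel and other T cells, in NK cells and in endothelial cells, pooled over samples, with Wilson 95% intervals. Ctla4 is highest in Foxp3-panel T cells (70.3%), Lag3 in CD8 T cells (33.3%), and Pdcd1 is at 0 in NK and endothelial cells.

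Whether Xevinapant changed these genes was tested within the classes listed below over the 3 vehicle and 2 Xevinapant samples. In neutrophils and T cells vehicle 2, with 6 cells of each, was left out. Over these joined samples no checkpoint gene, and no gene at all, was called in any of these classes by edgeR. The background called was 0.0% of 14408 genes tested in tumor cells, 11090 in myeloid cells, 2171 in lymphoid cells and 10366 in microglia. It was also 0.0% of 9335 in macrophages and monocytes, 2055 in neutrophils, 1272 in T cells and 15094 in all kept cells. At an unadjusted p under 0.05 the numbers of genes were 1614, 1513, 94, 639, 885, 108, 38 and 2477. DESeq2 on the same sums called 289 genes in tumor cells, 113 in myeloid cells, 33 in macrophages and monocytes, 3 in microglia, 734 in all kept cells and 0 in the other classes, no checkpoint gene among them. The count of 0 was not kept in several other settings. With each matrix as 1 mouse, 4 against 4, edgeR called 704 genes in tumor cells (5.06%), 311 in myeloid cells (2.86%), 81 in macrophages and monocytes (0.921%), 2 in T cells, 1442 in all kept cells (9.88%) and 0 in the other classes, with Cmtm6 in all kept cells the 1 checkpoint gene among them (0.39, adjusted p = 0.0309). Without the filter it called 790 genes in myeloid cells (4.7%), 248 in macrophages and monocytes (1.6%), 63 in microglia (0.435%), 13 in lymphoid cells, 3 in T cells and 1 in neutrophils. Without Xevinapant 3 and 4, which left a lone Xevinapant sample, it called 503 genes in all kept cells (3.27%) and 61 in myeloid cells (0.539%), and in myeloid cells the looser gate called 2, a minimum of 1000 genes 5 and thinned counts 5. The checkpoint genes that passed the filter numbered 7 in tumor, 8 in myeloid, 5 in lymphoid and 9 in all kept cells, and their median log2 fold changes were 0.10, 0.02, 0.62 and 0.52, beside 0.01, 0.00, 0.00 and 0.00 over all genes tested.

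In all kept cells Cd274 gave 0.999 ± 0.43, Cmtm6 0.42 ± 0.13, Lag3 0.61 ± 0.26, Sirpa 0.38 ± 0.18, Havcr2 0.52 ± 0.37 and Cd47 -0.12 ± 0.14, with edgeR adjusted p of 0.309, 0.248, 0.312, 0.341, 0.493 and 0.669. Pdcd1 gave 0.81 ± 0.66, Ctla4 1.91 ± 1.16 and Lgals9 0.26 ± 0.46 (adjusted p = 0.551, 0.437 and 0.8). The makeup of all kept cells differed between the groups, with myeloid cells at a mean of 3.98% of cells and 1.49% of UMIs in vehicle and 9.43% and 4.27% in Xevinapant, and its part in these differences was not tested.

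In tumor cells Cmtm6 and Lag3 were the checkpoint genes whose levels did not overlap between the groups. The Cmtm6 level was 36.8 ± 4.05 CPM (SD, n = 3) in vehicle and 48.7 ± 2.12 CPM (SD, n = 2) in Xevinapant, a fitted difference of 0.36 ± 0.13 with an edgeR adjusted p of 0.414 (unadjusted 0.025). The Lag3 level was 5.61 ± 1.25 CPM (SD, n = 3) in vehicle and 8.6 ± 1.33 CPM (SD, n = 2) in Xevinapant, a fitted difference of 0.58 ± 0.26 with an adjusted p of 0.462. Levels did not overlap for 30% of the 18942 genes with a UMI in tumor cells, so 2 of 10 is no more than the background. Cd274 differed by 0.37 ± 0.38, Cd47 by -0.20 ± 0.12, Sirpa by -0.07 ± 0.12, Havcr2 by -0.20 ± 0.32 and Lgals9 by 0.10 ± 0.57, with adjusted p of 0.709, 0.551, 0.835, 0.825 and 0.956. For Lgals9 the vehicle samples alone spread from 15 to 77.4 CPM.

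In myeloid cells Havcr2 and Lgals9 lay lower in both Xevinapant samples than in every vehicle sample. Havcr2 stood at 171, 122 and 188 CPM in the vehicle samples and 86.3 and 120.4 CPM in the Xevinapant samples, a difference of -0.62 ± 0.21 (adjusted p = 0.275), which edgeR called without the low-count filter (-0.61, adjusted p = 0.0145, beside 4.7% of all genes). Lgals9 stood at 512, 437 and 539.7 CPM in the vehicle samples and 402 and 406 CPM in the Xevinapant samples, a difference of -0.26 ± 0.17 (adjusted p = 0.528). Levels did not overlap for 26.9% of the 16809 genes with a UMI in myeloid cells, so 2 of 9 is no more than the background. The makeup of the gate moved with the treatment: macrophages and monocytes numbered 141, 51 and 126 in the vehicle and 547 and 303 in the Xevinapant samples, and microglia 117, 82, 198, 136 and 222, and neutrophils 34, 6, 10, 178 and 73, and the part of this makeup in the differences of the whole gate was not tested. Within macrophages and monocytes Havcr2 gave -0.62 ± 0.20 (adjusted p = 0.406) and within microglia -0.30 ± 0.20 (adjusted p = 0.874). Lgals9 gave -0.13 ± 0.21 and -0.10 ± 0.17 in the same classes (adjusted p = 0.871 and 0.955). The other 6 genes tested in the whole gate gave 0.21 ± 0.28 for Cd274, 0.21 ± 0.15 for Cmtm6, -1.10 ± 0.77 for Pdcd1, -0.07 ± 0.35 for Lag3, 0.12 ± 0.18 for Cd47 and 0.27 ± 0.21 for Sirpa, with adjusted p of 0.771, 0.568, 0.567, 0.947, 0.807 and 0.611.

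Lag3 had differences of opposite sign in microglia and in macrophages and monocytes, and neither was called. In microglia it was 57.2 ± 3.54 CPM (SD, n = 3) in vehicle and 94.5 ± 9.95 CPM (SD, n = 2) in Xevinapant, a difference of 0.75 ± 0.15 (adjusted p = 0.796, unadjusted 0.000543), and the groups did not overlap, beside 19.2% of the 14478 genes with a UMI in microglia. In macrophages and monocytes the difference was -1.08 ± 0.66 (adjusted p = 0.638), with 5.16 CPM in Xevinapant 1 and 2 but 34.3 CPM in Xevinapant 3 and 4, the latter within the vehicle range. Without the low-count filter edgeR called both, at 0.76 in microglia (adjusted p = 0.0224) and -1.06 in macrophages and monocytes (adjusted p = 0.0332), beside 0.435% and 1.6% of all genes. Without Xevinapant 3 and 4 the latter was called at -2.80 (adjusted p = 0.0378, beside 0.136% of all genes), where 1 Xevinapant sample stood against 3 vehicle samples and was assumed to vary as they do. The difference between the 2 classes was not tested.

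In lymphoid cells, 5 checkpoint genes could be tested and none passed an unadjusted p of 0.05. Pdcd1 differed by 0.62 ± 0.54 and Ctla4 by 0.99 ± 0.85 (edgeR adjusted p = 1 for each). Cmtm6 differed by 0.70 ± 0.43, Cd47 by -0.30 ± 0.36 and Lgals9 by -0.48 ± 0.40. The samples of each group were themselves unlike: Ctla4 in T cells stood at 78.2 and 543 CPM in 2 vehicle samples and at 47.7 and 682 CPM in the Xevinapant samples, on 3, 22, 3 and 118 UMIs. Without Xevinapant 1 and 2, Ctla4 in lymphoid cells was called at 1.78 (adjusted p = 0.0476, beside 0.269% of all genes), again with a lone Xevinapant sample that was assumed to vary like the 3 vehicle samples. In T cells alone, with 2 samples per group, Pdcd1 gave 0.36 ± 0.65, Ctla4 0.38 ± 0.93 and Cd47 -0.59 ± 0.52. Cmtm6 gave 0.41 ± 0.55 and Lgals9 -1.20 ± 0.45 there, and the edgeR adjusted p of each of these 5 genes was 0.999. Among neutrophils, also with 2 samples per group, Cmtm6 gave 1.49 ± 0.61 (adjusted p = 0.926) and Cd274 -0.25 ± 0.57 (adjusted p = 0.99). The vehicle side of these differences rests on 34 and 10 cells of low depth.

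**Figure D4:**
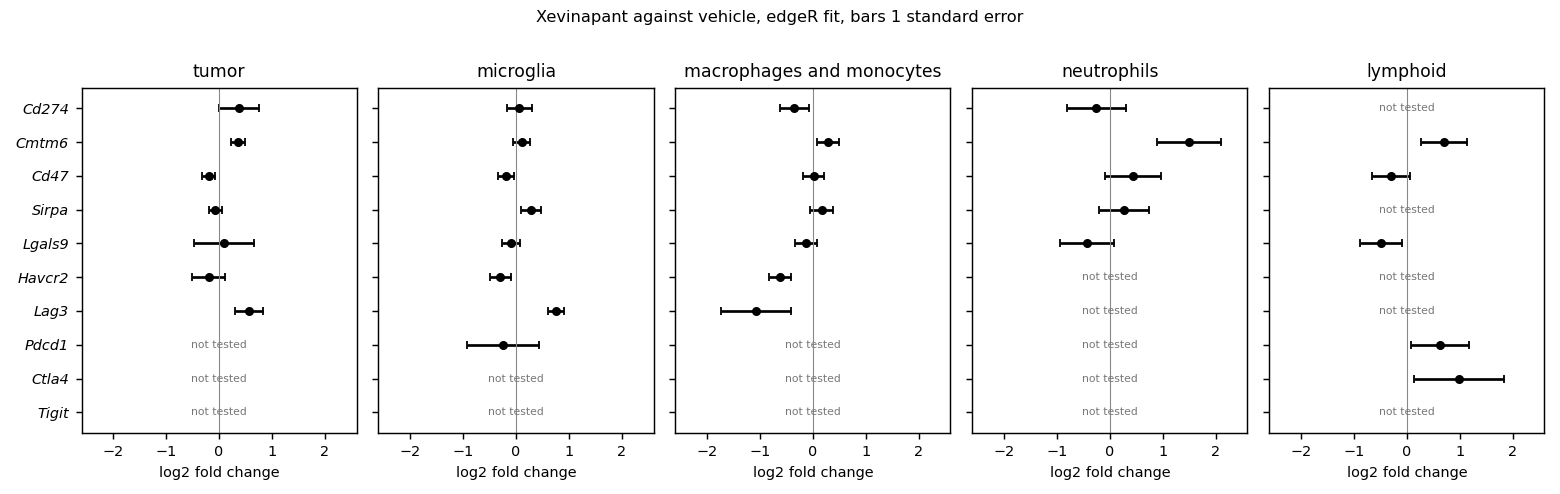
Points are the log2 fold changes of Xevinapant against vehicle from the edgeR fit in tumor cells, microglia, macrophages and monocytes, neutrophils and lymphoid cells, with bars of 1 standard error and "not tested" where a gene did not pass the low-count filter. The differences farthest from 0 in units of their error are those of Lag3 in microglia (0.75) and Havcr2 in macrophages and monocytes (-0.62), and none passed the adjusted threshold.

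Detection was compared between the groups by an exact two-sided permutation test over samples, which with 3 samples against 2 cannot go below p = 0.1. In tumor cells the share with a UMI did not overlap for 5 of 10 genes, Cd274, Cmtm6, Ctla4 and Lag3 higher and Cd47 lower in Xevinapant, beside 30.9% of all genes with a UMI there. For Ctla4 this rests on 2, 0 and 13 UMIs in the vehicle and 5 and 10 in the Xevinapant samples. For Cmtm6 the share was 42 ± 2.19% (SD, n = 3) in vehicle and 50.7 ± 5.03% (SD, n = 2) in Xevinapant (exact permutation p = 0.1), and 3.9 ± 0.726% (SD, n = 3) in vehicle and 4.76 ± 0.129% (SD, n = 2) in Xevinapant at 1000 UMIs per cell (exact permutation p = 0.3). For Cd47 it was 78.6 ± 0.758% (SD, n = 3) in vehicle and 75.9 ± 1.18% (SD, n = 2) in Xevinapant (exact permutation p = 0.1). Median depth of tumor cells ran from 13884 to 15310 UMIs in the vehicle samples and was 14291 and 18164.5 in the Xevinapant samples. In myeloid cells 2 of 9 genes did not overlap, Havcr2 and Lgals9, beside 22.7%, and Lgals9 at 1000 UMIs per cell was 37.3 ± 1.38% (SD, n = 3) in vehicle and 27 ± 0.142% (SD, n = 2) in Xevinapant (exact permutation p = 0.1). Within macrophages and monocytes the shares of Cmtm6 and Lgals9 were instead higher in Xevinapant without overlap, beside 29.2% of 15521 genes. There the Lgals9 share was 66.6 ± 3.01% (SD, n = 3) in vehicle and 74.6 ± 1.48% (SD, n = 2) in Xevinapant (exact permutation p = 0.1), and 30.1 ± 3.56% (SD, n = 3) in vehicle and 26.3 ± 0.311% (SD, n = 2) in Xevinapant at 1000 UMIs per cell (exact permutation p = 0.4). In lymphoid cells 3 of 10 did not overlap, Cmtm6 and Sirpa higher and Tigit lower, beside 27.0%. For Tigit this rests on 1, 2, 2, 0 and 3 UMIs and for Sirpa on 0, 0, 1, 2 and 10 UMIs in the 5 samples. Over all genes, shares without overlap were mostly higher in Xevinapant: 5166 higher and 695 lower in tumor cells and 2887 and 935 in myeloid cells. The numbers were 4230 and 298 in macrophages and monocytes and 3154 and 235 in lymphoid cells.

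A list of 50 other genes of the checkpoint pathways, ligands, costimulatory receptors and signalling partners, was read in the same fits, and all 50 had a probe. In myeloid against tumor cells 42 could be tested, of which 29 were higher and 8 lower (88.1%, beside 77.4% of all genes), with a median log2 fold change of 4.13 beside -0.11 over all genes tested. In lymphoid against tumor cells 25 were higher and 12 lower of 42 (88.1% beside 55.3%, median 3.56 beside -0.30), and in lymphoid against myeloid cells 13 were higher and 16 lower (69.05% beside 34.5%). In macrophages and monocytes against microglia 13 of 39 were higher and 6 lower (48.7% beside 22.0%). In neutrophils against microglia 13 of 39 were higher and 8 lower, at 53.8% close to the 47.7% of all genes. In T cells against NK cells 5 of 39 were called (12.8% beside 1.82%). These were Tnfrsf4, Nt5e, Icos and Cd28, higher in T cells, and Cd244a, an NK receptor, lower, and they are named after their values were seen. For Xevinapant against vehicle edgeR called none of 40 tested in tumor cells, 33 in myeloid cells, 12 in lymphoid cells and 31 in microglia. It also called none of 31 in macrophages and monocytes, 12 in neutrophils, 10 in T cells and 46 in all kept cells. At an unadjusted p under 0.05 the numbers in this order were 5, 10, 0, 2, 9, 3, 1 and 17. Over all genes tested they were 1614 of 14408, 1513 of 11090, 94 of 2171, 639 of 10366, 885 of 9335, 108 of 2055, 38 of 1272 and 2477 of 15094.

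A few partners of the receptors were also named after their values were seen. Pdcd1lg2, the second PD-1 ligand, had at most 2.1 CPM pooled in any of the 8 classes read, on 1 UMI in neutrophils. Dendritic cells, 8 in all, and the 802 myeloid cells that met no finer panel were not among these classes. Of the CTLA-4 ligands, Cd86 was highest among the 8 classes read in microglia, at 132 CPM pooled, and Cd80 in neutrophils, at 130.5 CPM. Of the TIGIT ligands, Nectin2 stood at 300.04 CPM and Pvr at 112 CPM in endothelial cells, with 92.6 and 49.1 CPM in tumor cells.

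Across the 35 sums per sample and class (8 classes), the genes whose log2 CPM ran most like each checkpoint gene were found among 10207 genes, as a description, since the sums share samples and cells. Pdcd1 ran with Il2ra (r = 0.98), Cxcr6 (r = 0.92), Cd3e (r = 0.91), and Ctla4 with Pglyrp2 (r = 0.96), Cd27 (r = 0.95), Cd96 (r = 0.95). Of these, Cd3e is in the T cell panel that set the classes. Il2ra is in the Foxp3 panel, which only split the T cells and set none of the 8 classes. Havcr2 ran with Cd86 (r = 0.93), Cybb (r = 0.91), Rgs10 (r = 0.90), and Sirpa with Fgd4 (r = 0.91), Atp6v0a1 (r = 0.86), Cd68 (r = 0.86), of which Cd68 is a marker of the myeloid gate. Cd274 ran with Treml2 (r = 0.91), Slfn1 (r = 0.90), Rab20 (r = 0.90), Lgals9 with Abi3 (r = 0.91), Abcg1 (r = 0.90), Sat1 (r = 0.90) and Cmtm6 with Tbk1 (r = 0.88), Ostf1 (r = 0.87), Edem1 (r = 0.87). Cd47 ran with H2-Q6 (r = 0.84), Ifngr1 (r = 0.83), Shisa5 (r = 0.83), where Ifngr1 is a chain of the interferon gamma receptor and H2-Q6 an MHC class I gene. Lag3 ran with Trim65 (r = 0.89), Tnfsf8 (r = 0.88), Kcnn4 (r = 0.82), and Tigit, near its limit of detection, with Sidt1 (r = 0.81), Gpr174 (r = 0.81), Gzmk (r = 0.80).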

How the data were processed

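Single cells were taken from orthotopic mGSC tumors of vehicle and Xevinapant mice and profiled with a probe-based kit for fixed cells. The authors deposited 4 matrices of raw UMI counts per group for 19059 genes, with the barcodes and symbols beside them, and no other value columns. The labels name Cell Ranger 3.0, Seurat and mm10, while the file headers name Cell Ranger 7.1.0; cell calling was already applied and the filters named in the labels were not. File names of the Xevinapant matrices also read Vehicle; grouping followed the sample label.

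Barcodes entered with at least 200 genes, at most 10% of UMIs from mitochondrial genes and log-scale complexity no lower than 0.8, and 3474 barcodes with the highest Scrublet scores were removed at 0.8% per 1000 barcodes. Copies of a barcode with at least 20 times fewer UMIs than in the other pool were set aside (1152, median 768.5 UMIs). Gates required 10 UMIs of the tumor or myeloid panel or 4 of the lymphoid panel, from at least 3 genes. Rates of the other panels had to stay under set limits. For the lymphoid gate the myeloid limit was 75 per 10000 UMIs, which is also the least rate of the myeloid gate. For the myeloid and lymphoid gates the tumor limit was 30, above the least rate of 20 of the tumor gate. Finer classes required 3 UMIs from at least 2 genes. For the 3 joined pairs of matrices the chi-square of cell makeup per degree of freedom was 0.799 to 1.99, against 4.23 to 46.8 for the 9 other pairs of a group; tumor expression differed by 1.17 to 2.72 times the sampling noise against 4.53 to 8.71. Pairs under 2 and 3 on these measures were joined. The methods describe 4 tumors per group, so each matrix as 1 mouse was the alternative. The labels tie no matrix to an animal, so p-values measure the spread between these samples, which may in part be technical.

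Sums of counts over the cells of a class, for each sample with 10 or more such cells, were tested with edgeR 4.0.16 (TMM, filterByExpr, quasi-likelihood test, Benjamini-Hochberg adjustment at 0.05 over all genes tested), with the sample as a block between classes. Standard errors are the log2 fold change over the root of the F statistic. With edgeR on simulated counts, 86.9% of genes changed 1 log2 unit were recovered in tumor cells and 76.8% in myeloid cells. The simulation gave every gene the same fixed spread between samples and changed only genes above a low mean count. These shares therefore do not measure what the real samples, with their own spread, could show. Pooled shares have Wilson intervals, and bounds for classes at 0 use 3 counts. Sequences came from RefSeq windows on GRCm38.p6. Alternatives were DESeq2 1.42.0, plain library-size scaling, testing all genes with no filter, stricter or looser gates, no doublet removal, a mitochondrial limit of 5%, at least 1000 genes, thinned counts, each matrix as 1 mouse and each sample left out; joining the alike matrices and keeping the hopped copies were chosen after seeing the data. Software was Python 3.11.15 with numpy 2.4.6, pandas 2.3.3, scipy 1.17.1, scanpy 1.11.5, statsmodels 0.14.6 and matplotlib 3.10.9, and R 4.3.3 with limma 3.58.1.

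The rule was to name all 10 checkpoint genes in every comparison; within the finer classes some are given only in the plot of fold changes or by counts. From the list of 50 pathway genes, the 2 largest increases and the 2 largest decreases past the threshold were to be named for tumor and myeloid cells under treatment, and none passed. For each checkpoint gene the 3 genes with the most similar log2(CPM + 1) profile are named, among genes with a class mean of at least 5. The genes, lists and gates were chosen with earlier results of these data known.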

Additional observations from a re-analysis of the deposited data

How the results depend on the processing

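With 3 samples against 2, and tumor cells far more numerous than lymphocytes, depth limits lymphoid cells and neutrophils, where few checkpoint genes could be tested between the groups, and a treatment difference that misses the threshold does not show that levels were alike. Treatment coincides with pool, batch date and RNA label. No paired analysis was possible because the labels give each group as 1 pooled sample and tie no animal or matrix of one group to one of the other. Of the refits of a log2 fold change between classes, 688 kept direction and side of the threshold, 29 lost the call, 24 gained one and 15 changed direction; for Xevinapant against vehicle the numbers were 797, 0, 6 and 37. Only differences that were not called changed direction, with the exception of Cmtm6 in lymphoid against myeloid cells.

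In T cells against NK cells DESeq2 called 1 checkpoint gene in place of 2 (1.07% of all genes in place of 1.82%), and leaving out a sample gave 0 to 3 (0.534% to 1.96%), with 0 without Xevinapant 3 and 4 (0.534%). In macrophages and monocytes against microglia DESeq2 called 2 in place of 4 (14.2% of all genes in place of 22.0%), and leaving out a sample gave 2 to 4 (12.5% to 21.6%), with 2 without either Xevinapant sample (17.5% and 12.5%). For Xevinapant against vehicle, where edgeR called 0, counting each matrix as 1 mouse called 1 in all kept cells (Cmtm6, 0.39, adjusted p = 0.0309, beside 9.88% of all genes), and testing without the low-count filter called 1 in each of microglia (Lag3, beside 0.435% of all genes), macrophages and monocytes (Lag3, 1.6%) and myeloid cells (Havcr2, -0.61, adjusted p = 0.0145, 4.7%). Leaving out a sample gave 0 to 1 calls in lymphoid cells (Ctla4, without Xevinapant 1 and 2) and 0 to 1 in macrophages and monocytes (Lag3, without Xevinapant 3 and 4), both with 1 Xevinapant sample assumed to vary like the vehicle samples, beside 0.269% and 0.136% of all genes. The number of checkpoint genes whose shares of cells did not overlap fell from 5 to 2 in tumor, 2 to 1 in myeloid and 3 to 1 in lymphoid cells with each matrix as 1 mouse (14%, 6.29% and 4.21% of all genes), rose to 4 in myeloid cells at 1000 UMIs per cell (21.8%), and ran over 5 to 8 in tumor cells, 2 to 6 in myeloid cells and 3 to 6 in lymphoid cells when a sample was left out, where fewer samples left 37% to 64.4%, 33.5% to 51.9% and 37.4% to 51.6% of all genes without overlap.

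The direction changed with the looser gate for Sirpa in T cells against NK cells (-1.64), Cmtm6 in macrophages and monocytes against microglia (0.020), Sirpa in neutrophils (-0.0011) and Havcr2 in tumor (0.13), at a mitochondrial limit of 5% for Lgals9 in T cells against NK cells (-0.000587), without doublet removal for Lgals9 in T cells against NK cells (-0.027) and Cmtm6 in macrophages and monocytes against microglia (0.000479), without TMM for Cmtm6 in lymphoid against myeloid (0.025), at 1000 genes or more for Cmtm6 in macrophages and monocytes against microglia (0.011), with DESeq2 for Ctla4 in neutrophils against microglia (3.17), with each matrix as 1 mouse for Pdcd1 in T cells (-0.17), Ctla4 in T cells (-0.26), Cd47 in macrophages and monocytes (-0.046) and Lgals9 in tumor (-0.061), with thinned counts for Ctla4 in T cells (-0.099) and Cd274 in microglia (-0.086), without the low-count filter for Cd274 in neutrophils (0.034). The cause was not tested. Leaving out each sample in turn turned the direction of these differences between classes, given as lowest to highest value. In T cells against NK cells the range was Lgals9 -0.22 to 0.75, Cmtm6 -0.024 to 2.18 and Sirpa -1.42 to 6.79. In macrophages and monocytes against microglia the range was Cmtm6 -0.076 to 0.035 and Ctla4 -1.88 to 1.91. In neutrophils against microglia the range was Ctla4 -2.06 to 1.17. For Xevinapant against vehicle the ranges that crossed 0 were as follows. In T cells they ran over Pdcd1 -0.39 to 2.07, Ctla4 -2.67 to 2.43, Cmtm6 -0.062 to 1.14 and Cd47 -1.15 to 0.43. In all kept cells they ran over Lgals9 -0.13 to 0.62 and Pdcd1 -0.0085 to 1.43. In lymphoid they ran over Lgals9 -0.76 to 0.062, Pdcd1 -0.36 to 1.77 and Ctla4 -1.97 to 1.78. In macrophages and monocytes they ran over Lgals9 -0.25 to 0.0068, Cd47 -0.088 to 0.13 and Sirpa -0.0016 to 0.32. In microglia they ran over Cd274 -0.14 to 0.35, Cmtm6 -0.065 to 0.28, Pdcd1 -1.58 to 0.30 and Lgals9 -0.28 to 0.062. In myeloid they ran over Lag3 -0.90 to 0.46, Cd47 -0.043 to 0.26 and Cd274 -0.016 to 0.58. In neutrophils they ran over Cd274 -1.04 to 0.46 and Lgals9 -0.59 to 0.36. In tumor they ran over Lgals9 -0.34 to 0.52.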

Other observations

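Outside the tumor and immune gates, stromal cells carried several of the genes. Fibroblast and mural cells held 271, 226, 248, 284 and 267 CPM of Cd47, 96.6, 141, 86.2, 120.0 and 86.7 CPM of Sirpa and 128, 102, 127, 125 and 109 CPM of Lgals9, in the sample order used above, with no Pdcd1, Ctla4 or Tigit UMI in 542 cells. Endothelial cells, which line the tumor vessels, held 409, 247, 291, 277 and 364 CPM of Cd47 and 87.6, 74.5, 119, 146 and 136 CPM of Cmtm6. Their Lgals9 level was 591 ± 76.6 CPM (SD, n = 3) in vehicle and 723 ± 50.9 CPM (SD, n = 2) in Xevinapant, and the groups did not overlap (exact two-sided permutation p = 0.2). Of the 6 checkpoint genes with an endothelial UMI, 4 were higher in Xevinapant without overlap (Cd274, Cmtm6, Lag3 and Lgals9), beside 23.7% of the 13610 genes with a UMI there. Of these, Cd274 had 35 and Lag3 11 UMIs over all 246 endothelial cells, and no treatment fit was run in this class. By the share of cells with a UMI 3 of 6 did not overlap, Cd274, Lag3 and Sirpa, all higher, beside 16.2%, while Cmtm6 and Lgals9 overlapped. The 40 B cells held 509.9 CPM of Cd47, 182 CPM of Cmtm6 and 182 CPM of Lgals9 when pooled, and no Pdcd1, Ctla4, Lag3 or Havcr2 UMI.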
